A study of Mus musculus with 20 samples.

Results

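The nuclear genes for subunits of the respiratory chain and the ATP synthase were examined in mouse macrophages that lack Trem2 or carry its R47H substitution. They were found by name, as all gene symbols that match the subunit naming patterns of complex I (Nduf), complex II (Sdh), complex III (Uqcr), complex IV (Cox) and complex V (Atp5). Of 51456 symbols in each library, 83 matched, and 78 of these averaged 1 FPKQ or more across the 20 libraries, the level at which 10843 genes in all were tested. FPKQ is the expression unit of the deposited files, which no source used here defines, and it is handled here as a level per transcript length. The rule used names and the mean over all libraries, and no difference between groups, but it was chosen with earlier results of these data known. All 36 matching genes of complex I, all 4 of complex II, all 8 of complex III and all 17 of complex V were tested, and 13 of 18 of complex IV. The 5 others (Cox4i2, Cox6a2, Cox7b2, Cox8b and Cox8c) fell below the minimum. Of the members below it, Cox6a2 had the highest mean, 0.299 FPKQ, and of those above it Cox6b2 had the lowest, 1.28 FPKQ. The 13 subunits encoded by mitochondrial DNA were not analysed here.

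Complex I takes electrons from NADH and complex II, which is also the succinate dehydrogenase of the TCA cycle, takes them from succinate. Both pass them by ubiquinone to complex III, from where cytochrome c carries them to complex IV, the cytochrome c oxidase that reduces oxygen. Complexes I, III and IV pump protons across the inner membrane, and complex V, the ATP synthase, uses the gradient to make ATP. In macrophages the chain is also known as a source of reactive oxygen, and the oxidation of succinate by complex II is known to shape inflammatory cytokine production.

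Poly-A RNA was sequenced from macrophages grown out of the bone marrow of C57BL/6 mice aged 4 to 5 months, and kept for 6 days in CSF-1 at 50 ng/ml, which turns marrow progenitors into macrophages. The groups were KO, from Trem2-/- mice whose label gives a 5 bp knockout (5 libraries), R47H, from mice whose Trem2 gene carries that substitution as a knock-in (5 libraries), and WT (10 libraries). The design text gives 5 animals per genotype and wild-type littermates of each mutant line. The labels do not tie wild-type libraries to a line, so all 10 served both mutants, and the KO and R47H comparisons share these controls. Trem2, a lipid-sensing receptor of macrophages, averaged 24.1 ± 0.435 FPKQ in KO (SD, n = 5), 652 ± 137 FPKQ in R47H (SD, n = 5) and 806 ± 60.6 FPKQ in WT (SD, n = 10). The exact two-sided permutation test of its log2 level gave p = 6.66e-04 for KO against WT, the smallest p these groups allow, and p = 0.0167 for R47H against WT.

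The macrophage markers Lyz2, Csf1r, Cd68 and Adgre1 were abundant in all groups, with the 8 listed markers summing to 32452 to 35218 FPKQ in KO, 26406 to 29495 FPKQ in R47H and 23155 to 26582 FPKQ in WT. Of these 8 markers, 4 rose and 3 fell in KO, and 4 rose and 2 fell in R47H, against WT. The 9 neutrophil markers summed to 98.6 to 129 FPKQ in KO, 86.3 to 150 FPKQ in R47H and 70.6 to 107 FPKQ in WT, although Ly6g averaged 0 FPKQ in KO, 0.02 FPKQ in R47H and 0 FPKQ in WT. Markers of B cells, T cells, dendritic cells, erythroid cells and stroma summed to at most 2.95 FPKQ per list in any library. Respiratory subunits are made in all these cell types, and the part of cell mixture in the values below was not tested. In bulk RNA, fewer cells of a type and less RNA per cell cannot be told apart. Xist, which marks female cells, was above 1 FPKQ in 4 of 5 KO libraries, 4 of 5 R47H libraries and 4 of 10 WT libraries, so sex was not balanced across genotypes. At 742 bases, the median transcript length of the tested members, 1 FPKQ corresponded to an estimated 17.3 to 26.5 fragments per library.

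Promoters of Sdha, which rose in KO, and of Sdhd, Ndufs3 and Atp5l, which rose in R47H, are printed to show their sequence context. No promoter of a member that fell is printed, and Sdhc, which fell in KO, had no promoter entry. Each runs 5′ to 3′ on the gene's strand from 250 bases before to 50 bases after the start, from RefSeq on GRCm38.p6. Capitals mark matches to 1 motif per window, on either strand. They mark the NRF1 motif (GCGC, any base, then TGCGC) in Sdha and Sdhd, CCGGAAGT, the ETS motif, in Ndufs3, and AAGGTCA, the ERR motif, in Atp5l. The windows are chr13:74350191-74350490 (minus strand) for Sdha, chr9:50603800-50604099 (minus strand) for Sdhd, chr2:90904672-90904971 (minus strand) for Ndufs3 and chr9:44920693-44920992 (minus strand) for Atp5l.
Sdha: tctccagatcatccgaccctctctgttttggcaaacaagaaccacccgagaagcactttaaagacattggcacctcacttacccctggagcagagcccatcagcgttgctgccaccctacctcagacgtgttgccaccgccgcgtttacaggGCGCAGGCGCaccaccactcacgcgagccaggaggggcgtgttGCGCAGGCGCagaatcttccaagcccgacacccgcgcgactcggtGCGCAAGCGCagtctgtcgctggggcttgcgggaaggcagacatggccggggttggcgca
Sdhd: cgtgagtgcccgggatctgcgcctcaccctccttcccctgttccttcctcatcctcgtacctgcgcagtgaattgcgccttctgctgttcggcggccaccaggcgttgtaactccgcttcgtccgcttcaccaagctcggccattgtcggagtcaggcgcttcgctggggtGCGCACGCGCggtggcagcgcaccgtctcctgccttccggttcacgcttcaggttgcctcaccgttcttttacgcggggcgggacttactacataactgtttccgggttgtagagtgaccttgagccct
Ndufs3: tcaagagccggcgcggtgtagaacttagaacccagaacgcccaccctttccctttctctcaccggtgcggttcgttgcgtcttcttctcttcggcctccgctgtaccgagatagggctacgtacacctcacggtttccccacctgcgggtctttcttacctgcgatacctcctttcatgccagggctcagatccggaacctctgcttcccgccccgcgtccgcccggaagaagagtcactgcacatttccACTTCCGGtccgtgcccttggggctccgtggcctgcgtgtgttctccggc
Atp5l: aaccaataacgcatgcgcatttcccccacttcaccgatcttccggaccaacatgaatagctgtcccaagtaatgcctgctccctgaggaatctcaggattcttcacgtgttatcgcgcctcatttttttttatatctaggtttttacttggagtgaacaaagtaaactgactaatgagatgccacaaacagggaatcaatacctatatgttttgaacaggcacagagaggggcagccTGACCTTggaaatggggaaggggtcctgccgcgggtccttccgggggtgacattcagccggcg
The NRF1 motif occurred at 3 places in the Sdha window and at 1 place in the Sdhd window. The Sdhd window also held the ERR motif, on the other strand as tgacctt, left in lower case.

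The promoter table held 75 windows for 69 of the 83 matching genes. The NRF1 motif was in 24% of these windows, against 4.60% of all 32851 promoters in the table. AAGATGGC, the YY1 motif, was in 16% of the members' windows and 2.75% of all. The ERR motif was in 10.7% of the members' windows and 4.72% of all, and the ETS motif in 6.67% and 3.89%. No window of a member held overlapping matches to different motifs. A match describes the letters only, and nothing here measured binding.

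Levels in macrophages differed widely between subunits. With FPKQ taken as a level per transcript length, the most abundant members by their mean over all libraries were Ndufa4 in complex I, Sdha in complex II, Uqcrh, the hinge protein of complex III, Cox4i1 in complex IV and Atp5b, the catalytic beta subunit, in complex V. Cox4i1 was the highest of all, at 538 ± 42.0 FPKQ in KO (SD, n = 5), 617 ± 151 FPKQ in R47H (SD, n = 5) and 552 ± 44.2 FPKQ in WT (SD, n = 10). Ndufa4 was named for complex I and was later placed in complex IV. At the low end of their complexes were Ndufa11 at 8.97 ± 0.533 FPKQ in KO, 10.7 ± 1.84 FPKQ in R47H and 9.93 ± 0.636 FPKQ in WT, Sdhc in complex II, Uqcrc2 in complex III, Cox6b2 in complex IV and Atp5s in complex V. Atp5s and Atp5sl match by name, but RefSeq now lists them as Dmac2l and Dmac2, Dmac2 being named for its part in the assembly of complex I.

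Complex IV has tissue isoforms, and the forms of heart, muscle, lung and testis were low, with the muscle form Cox7a1 reaching at most 5.52 FPKQ in any library and the testis form Cox6b2 at most 3.41 FPKQ. Cox4i1, the general form, made up 100% of Cox4i transcripts in KO, 99.99% in R47H and 99.99% in WT, and the lung form Cox4i2 the rest. The liver-type Cox6a1 made up at least 99.3% of Cox6a in every library, and Cox6b1 made up 98.2% or more of Cox6b, with Cox6b2 making up the rest. Cox7b and Cox8a had no contribution from Cox7b2, Cox8b or Cox8c, which were listed at 0 in all 20 libraries. The Cox7a set was grouped by name, and its shares do not show which product is used in complex IV. Within it, Cox7a2l made up 82.0 ± 1.81% in KO, 81.0 ± 2.23% in R47H and 80.5 ± 2.12% in WT, and nearly all the rest was Cox7a2. The muscle form Cox7a1 made up 1.09% in KO, 0.883% in R47H and 0.858% in WT. Cox7a2 averaged 65.1 FPKQ in KO, 76.0 FPKQ in R47H and 74.1 FPKQ in WT, against 4.21, 3.76 and 3.41 FPKQ for Cox7a1. The 3 genes for the c ring of ATP synthase encode the same mature peptide, and Atp5g3 made up most of their transcripts, 73.2 ± 2.49% in KO, 72.2 ± 3.37% in R47H and 74.8 ± 2.41% in WT. The isoform shares of the 3 genotypes overlapped in these sets.

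**Figure D1:**
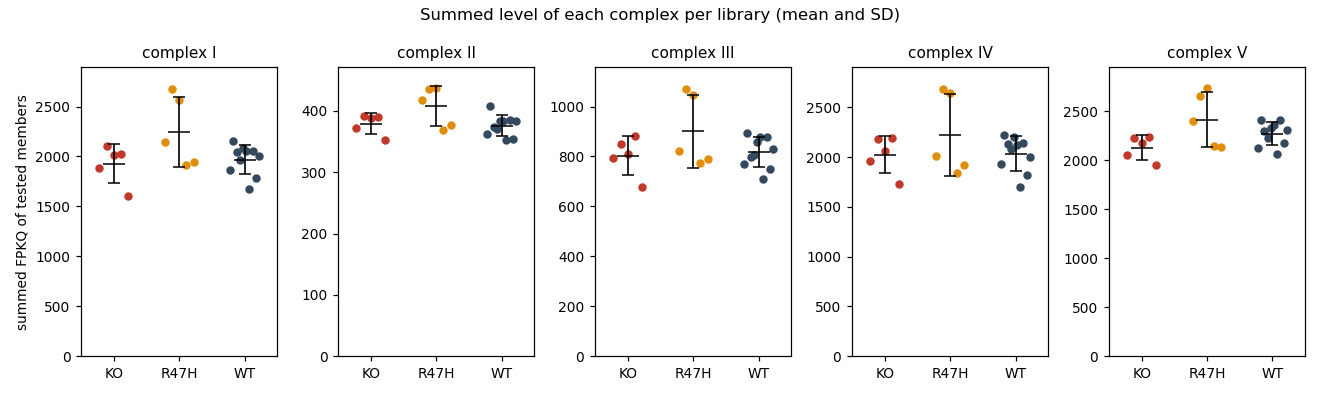
Summed FPKQ of the tested members of each complex (y axis, from 0) in each library, with the mean and SD per genotype (KO n = 5, R47H n = 5, WT n = 10). In each complex the highest values are R47H Rep2 and Rep3, and R47H Rep1, Rep4 and Rep5 lie within the range of KO and WT, except Rep1 in complex II.

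The mean summed level of complexes I to IV differed between KO and WT by less than 1 SD of the libraries, complex V averaged 93.7% of WT in KO, and all 5 complexes averaged higher in R47H than in WT, with a wide spread. Complex I summed to 1928 ± 195 FPKQ in KO, 2249 ± 352 FPKQ in R47H and 1968 ± 147 FPKQ in WT. Complex II summed to 379 ± 17.0 FPKQ in KO, 407 ± 32.4 FPKQ in R47H and 376 ± 16.8 FPKQ in WT. Complex III summed to 803 ± 77.5 FPKQ in KO, 901 ± 146 FPKQ in R47H and 817 ± 61.1 FPKQ in WT. The ranges of the genotypes overlapped in these complexes and in the 2 that follow. Complex IV summed to 2026 ± 189 FPKQ in KO, 2223 ± 411 FPKQ in R47H and 2036 ± 171 FPKQ in WT. Complex V summed to 2128 ± 125 FPKQ in KO, 2413 ± 283 FPKQ in R47H and 2271 ± 119 FPKQ in WT (SD, n = 5, 5 and 10 throughout). Over all 78 members, R47H Rep2 and Rep3 reached 9525 and 9437 FPKQ, while R47H Rep1, Rep4 and Rep5 held 7045 to 7792 FPKQ, KO libraries 6317 to 7761 FPKQ and WT libraries 6505 to 8092 FPKQ. R47H Rep2 and Rep3 therefore stood apart from the rest, and R47H results are given with and without them.

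**Figure D2:**
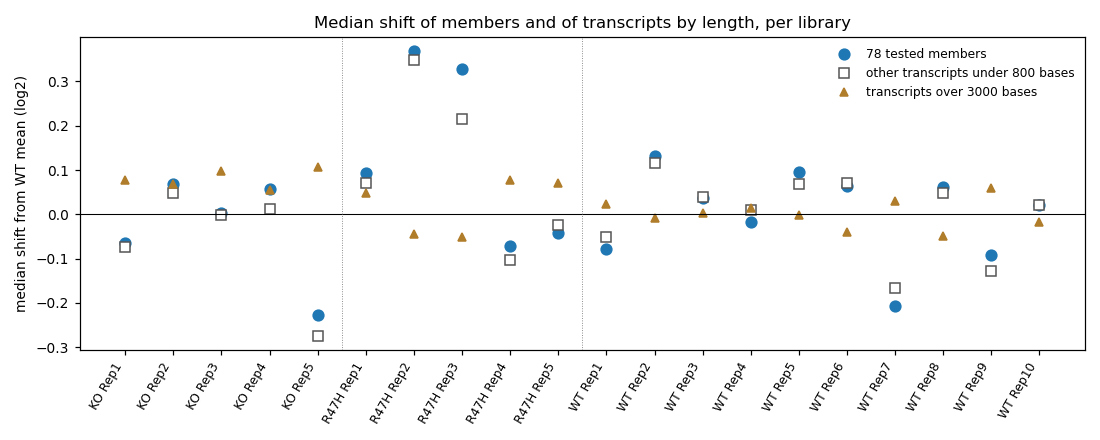
Median shift from the WT mean, in log2(FPKQ + 1), of the 78 tested members (filled circles), of other genes with transcripts under 800 bases (open squares) and of genes with transcripts over 3000 bases (triangles), for each library (x axis). Members and other short transcripts lie within 0.115 of each other in every library, highest in R47H Rep2 and Rep3 and lowest in KO Rep5.

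The members are mostly short transcripts, with a median length of 742 bases against 2591 bases for all tested genes. By length, 44 were under 800 bases and 33 were 800 bases or more. An adjusted p under 0.05 (limma) was reached by 4.55% and 21.2% of these in KO against WT (52.0% of all tested genes). In R47H against WT the shares were 9.09% and 15.2% (21.2% of all), and between R47H and KO 13.6% and 30.3% (40.7% of all). The members' median level in each library moved with that of 591 other genes whose transcripts are under 800 bases. In R47H Rep2 the members stood 0.37 above the WT mean on the log2 scale and the other short transcripts 0.35 above. In R47H Rep3 the shifts were 0.33 and 0.21, in KO Rep5 -0.23 and -0.27, and in WT Rep7 -0.21 and -0.17. The gap between the members and the other short transcripts was at most 0.115 in any library. Transcripts over 3000 bases moved by -0.04 and -0.05 in R47H Rep2 and Rep3 and by 0.11 in KO Rep5. The medians of the other short transcripts are given with each comparison below, and the part of transcript length in the results was not tested beyond the alternative that centres each library within length classes.

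**Figure D3:**
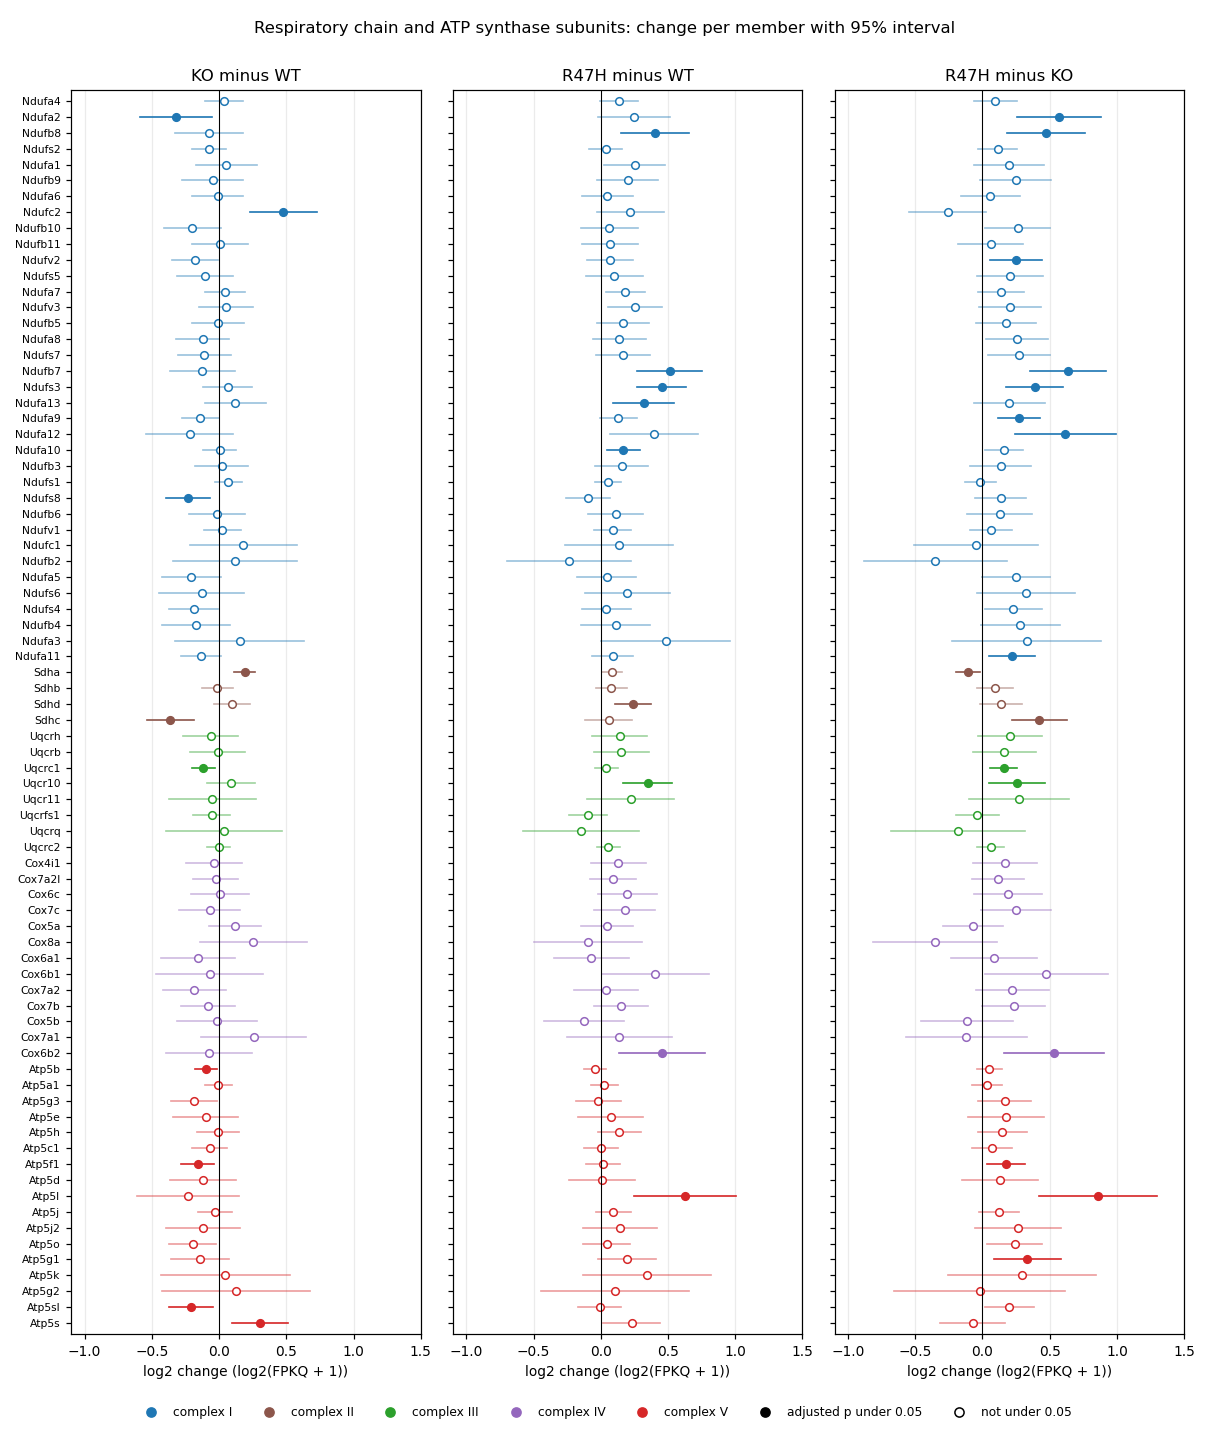
Change of each of the 78 tested members in log2(FPKQ + 1) (x axis) with its 95% interval, for KO minus WT, R47H minus WT and R47H minus KO, by complex and in order of abundance within it. Filled points have an adjusted p under 0.05 (limma, adjusted over 10843 genes): 10 members in KO, 9 in R47H and 16 between R47H and KO.

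KO macrophages differed from WT in few subunit genes. Of the 78 members, 3 rose and 7 fell in KO, 12.8% in all, while 52.0% of all tested genes were called in this comparison (28.2% higher and 23.7% lower), as were 30.3% of the 591 other short transcripts (68 higher and 111 lower). A gene is called here at an adjusted p under 0.05. The median change of the members was -0.05 on the log2 scale, against 0.01 over all tested genes and -0.06 over the 591 other short transcripts. For 71 of 78 members (91.0%) the 95% interval lay within a 1.5-fold change either way, against 77.3% of all tested genes, although members were measured less precisely (median SE 0.10, against 0.07 over all tested genes). When each library was centred within classes of transcript length, 12 members were called higher and 3 lower, so the balance of directions turned with that scaling.

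In complex II, 2 of 4 genes were called in KO, a share near the 52.0% of all tested genes, with the catalytic flavoprotein gene Sdha higher and the membrane anchor gene Sdhc lower. Sdha (chr13:74322254-74350280, GRCm38) stood at 118, 126, 130, 131 and 122 FPKQ in the KO libraries, against 105, 109 and 116 FPKQ as the lowest, median and highest of the 10 WT libraries. All 5 KO libraries lay above all 10 WT libraries. The change was 0.19 ± 0.04 on the log2 scale (SE, adjusted p = 1.62e-04, limma). Sdhc (chr1:171127165-171150603) stood at 59.2, 60.2, 62.7, 61.5 and 50.4 FPKQ in KO, against 59.3, 77.6 and 89.4 FPKQ in WT. The KO values lay below all WT libraries other than WT Rep9. The change was -0.36 ± 0.08 (SE, adjusted p = 0.00107, limma). Sdhb, the iron-sulfur subunit, averaged 104 ± 7.23 FPKQ in KO and 105 ± 7.31 FPKQ in WT, with an interval of -0.13 to 0.10 on the log2 scale. Sdhd, the other membrane anchor, averaged 90.6 ± 3.29 FPKQ in KO and 84.7 ± 5.39 FPKQ in WT, with an interval of -0.04 to 0.23. Sdha and Sdhc kept their calls and signs in all 28 alternatives that apply to this comparison, and no other called member did.

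**Figure D4:**
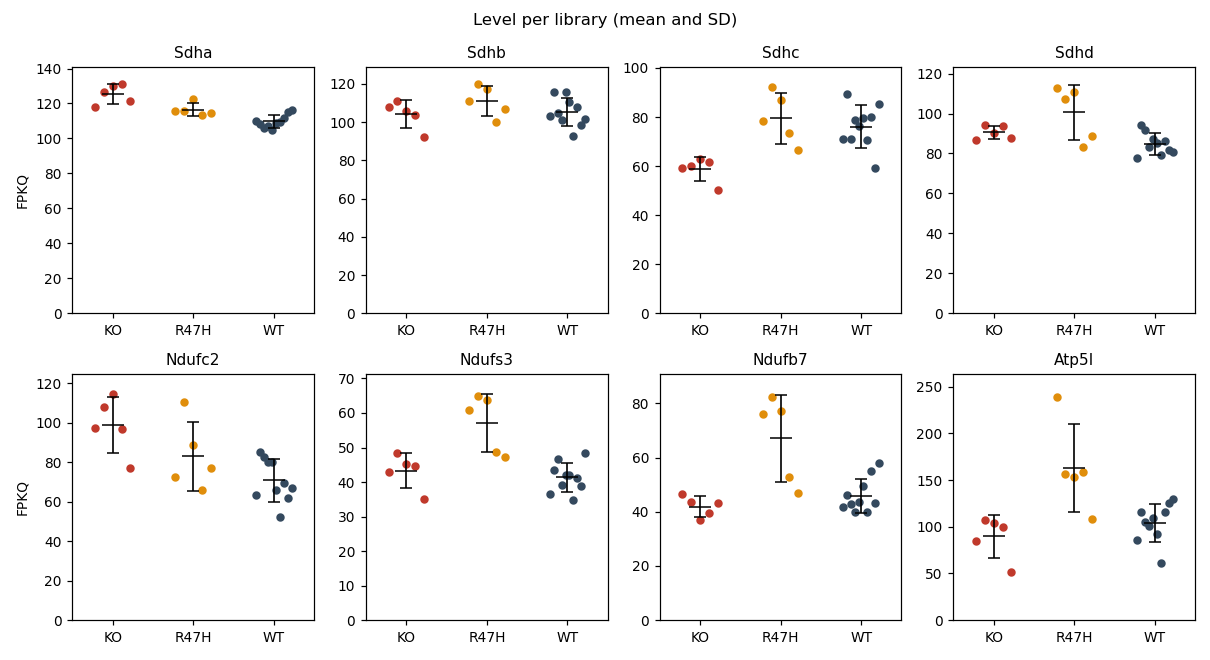
FPKQ of the 4 complex II genes and of Ndufc2, Ndufs3, Ndufb7 and Atp5l (y axis, from 0) in each library, with the mean and SD per genotype (KO n = 5, R47H n = 5, WT n = 10). KO lies above WT for Sdha without overlap and mostly below it for Sdhc, while R47H Rep1 to Rep3 lie above WT for Ndufs3, Ndufb7 and Sdhd.

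In complex I, 1 of 36 genes rose and 2 fell in KO. Ndufc2 (chr7:97400003-97407802), an accessory subunit of the membrane arm, had 97.3, 108, 114, 96.9 and 77.2 FPKQ in KO, against 52.1, 68.2 and 84.9 FPKQ as the lowest, median and highest in WT. The first 4 KO libraries lay above every WT library, and KO Rep5 lay within the WT range. The change was 0.48 ± 0.12 (SE, adjusted p = 0.00203, limma). Against WT Rep1 to Rep5 alone it did not pass, with an adjusted p of 0.0525, the highest of its 28 alternatives. Ndufs8, a core subunit that carries iron-sulfur clusters, had 32.6, 34.0, 30.4, 31.5 and 32.9 FPKQ in KO, against 31.1, 38.7 and 43.9 FPKQ in WT. The change was -0.23 ± 0.08 (SE, adjusted p = 0.0176, limma), and against WT Rep6 to Rep10 alone the adjusted p was 0.155. Ndufa2, an accessory subunit, averaged 98.0 ± 17.8 FPKQ in KO and 122 ± 16.7 FPKQ in WT, a change of -0.32 (adjusted p = 0.0426, limma). It lost its call in 11 of 28 alternatives, among them without KO Rep5 (adjusted p = 0.184), KO Rep1 (0.0724) or KO Rep3 (0.0661) and without WT Rep2, Rep3, Rep4, Rep5, Rep6 or Rep8 (0.0604 to 0.0665). Of the 7 core subunits of complex I that the nucleus encodes, Ndufs8 was the called one. Ndufc2 and Ndufa2 were the called ones of the 29 accessory genes, a count by name that includes Ndufa4.

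In complex III, Uqcrc1, a core protein, fell in KO and the 7 other genes were not called. It had 86.5, 88.3, 90.1, 91.2 and 92.5 FPKQ in KO, against 93.6, 96.0 and 105 FPKQ as the lowest, median and highest in WT. The groups did not overlap, for a change of -0.12 ± 0.04 (SE, adjusted p = 0.0232, limma), and the call was lost in 6 of 28 alternatives, among them without KO Rep1 (adjusted p = 0.0673, limma) or KO Rep2 (0.0533). Uqcrc2, the other core protein, averaged 53.7 ± 3.0 FPKQ in KO and 53.8 ± 1.83 FPKQ in WT, with an interval of -0.09 to 0.08. In complex IV 0 of 13 genes passed the limma test in KO, and 0 had an unadjusted p under 0.05. Cox6c averaged 181 ± 22.7 FPKQ in KO and 181 ± 22.6 FPKQ in WT. The largest differences in complex IV were those of Cox7a1 and Cox8a, both 0.26 on the log2 scale with intervals of -0.14 to 0.65 and -0.15 to 0.66. Cox8a differed between the WT sets, with 140 to 227 FPKQ in WT Rep1 to Rep5 and 122 to 150 FPKQ in WT Rep6 to Rep10. Its KO libraries held 170 to 230 FPKQ.

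In complex V as set by name, 1 of 17 genes rose and 3 fell in KO. Atp5s, which rose, and Atp5sl, which fell, are the genes that RefSeq now lists as Dmac2l and Dmac2. Atp5b had 301.9, 305.0, 318.5, 315.1 and 310.5 FPKQ in KO, against 319.3, 330.6 and 345.3 FPKQ as the lowest, median and highest in WT. The groups did not overlap, but the change was small, -0.10 ± 0.04 (SE, adjusted p = 0.0465, limma), and it kept its call in 8 of 28 alternatives. Leaving out any KO library ended it (adjusted p = 0.0514 to 0.11, limma), as did leaving out WT Rep2 or any of WT Rep5 to Rep10 (0.0511 to 0.0739). Sdha, Uqcrc1 and Atp5b were the 3 members with no overlap between KO and WT, while 28.7% of all tested genes had none. Atp5f1, the b subunit of the peripheral stalk, averaged 149 ± 9.12 FPKQ in KO and 167 ± 12.5 FPKQ in WT, a change of -0.16 (adjusted p = 0.0298, limma). Its call was lost in 8 of 28 alternatives, among them without KO Rep1 (0.0814), KO Rep5 (0.0962), WT Rep6 (0.0506) or WT Rep8 (0.0504). Atp5sl averaged 10.9 ± 0.956 FPKQ in KO and 12.8 ± 1.57 FPKQ in WT, a change of -0.21 (adjusted p = 0.0277, limma). Its call was lost in 4 of 27 alternatives, among them without KO Rep1 (0.0944) or KO Rep3 (0.0767). Atp5s was called higher, by 0.30 (adjusted p = 0.0161, limma), with 2.42, 2.63, 4.65, 2.56 and 2.62 FPKQ in KO, against 1.85, 2.15 and 2.56 FPKQ as the lowest, median and highest in WT. KO Rep3 was far above the others, and without it the adjusted p was 0.0857 by limma. The call of Atp5s was lost in 3 of 27 alternatives. Atp5h averaged 187 ± 13.8 FPKQ in KO and 188 ± 14.1 FPKQ in WT.

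The count of members lower in KO depended on single libraries. It was 2 without KO Rep1, and 4 without KO Rep3, KO Rep5, WT Rep6 or WT Rep8, against 7 with all libraries. Without KO Rep5, which had the lowest summed level, the members' median change was 0.02.

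R47H macrophages had more members above WT than below. Of the 78 members, 9 rose and 0 fell in R47H by limma, 11.5% in all, while 21.2% of all tested genes were called (13.4% higher and 7.83% lower), as were 10.7% of the 591 other short transcripts (52 higher and 11 lower). At an unadjusted p under 0.05, 17 members were higher and 0 lower. The change was positive in 68 of 78 members (87.2%), against 60.5% of all tested genes. The median change of the members was 0.12 on the log2 scale, against 0.04 over all tested genes and 0.10 over the 591 other short transcripts. Without R47H Rep2 and Rep3 the median was -0.0053, with Ndufs3 as the 1 member called higher, and 3 were called lower (Cox6a1, Atp5g3 and Uqcrfs1).

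Complex I held 5 of the 9. Ndufs3 (chr2:90894634-90904827), a core subunit, had 60.8, 65.0, 63.8, 48.8 and 47.4 FPKQ in R47H, against 34.8, 41.6 and 48.4 FPKQ as the lowest, median and highest in WT. The first 4 R47H libraries lay above every WT library. The change was 0.45 ± 0.09 (SE, adjusted p = 6.86e-04, limma), and it kept its call in all 29 alternatives, the 1 member of the 8 named here to do so. Ndufb7 (chr8:83566671-83571626), an accessory subunit, had 76.2, 82.5, 77.3, 52.7 and 46.8 FPKQ in R47H, against 39.7, 43.5 and 58.1 FPKQ in WT. R47H Rep1 to Rep3 lay above every WT library and Rep4 and Rep5 within their range, for a change of 0.51 ± 0.12 (SE, adjusted p = 0.0029, limma). The call was lost in 2 of 29 alternatives, against WT Rep6 to Rep10 alone and without R47H Rep2 and Rep3. Ndufb8, another accessory subunit, had 143, 156, 171, 115 and 134 FPKQ in R47H, against 76.9, 108 and 125 FPKQ in WT. Its change was 0.40 ± 0.12 (SE, adjusted p = 0.0216, limma). It lost its call in 9 of 29 alternatives, among them without R47H Rep2 (0.0647), without R47H Rep3 (0.0753) and against WT Rep1 to Rep5 alone.

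Ndufa13, also known as a cell death regulator named Grim19, rose by 0.32 in R47H (adjusted p = 0.0403, limma), with 45.9, 70.7, 57.3, 43.1 and 45.3 FPKQ in R47H, against 33.2, 41.3 and 45.5 FPKQ as the lowest, median and highest in WT. It lost its call in 15 of 29 alternatives, among them without R47H Rep2 (adjusted p = 0.177, limma), R47H Rep3 (0.104) or WT Rep1, Rep4, Rep7, Rep8 or Rep9 (0.053 to 0.0663). Ndufa10 lies outside the rule for named genes and was chosen after its values were seen, because it was the 1 member whose R47H and WT libraries did not overlap, while 6.91% of all tested genes had no overlap. It had 43.4, 43.8, 41.8, 45.9 and 40.5 FPKQ in R47H, against 32.1, 39.0 and 40.4 FPKQ in WT, a change of 0.17 (adjusted p = 0.0486, limma). The values of R47H Rep2 and Rep3 lay between those of Rep4 and Rep5, but without R47H Rep2 and Rep3 Ndufa10 was not called. Its call was not counted over the other alternatives.

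In complex II, Sdhd (chr9:50596357-50603812) rose in R47H, with 113, 107, 111, 83.0 and 88.7 FPKQ in R47H, against 77.7, 84.0 and 94.2 FPKQ as the lowest, median and highest in WT. R47H Rep1 to Rep3 lay above every WT library and Rep4 below the WT median, for a change of 0.24 ± 0.06 (SE, adjusted p = 0.0115, limma) that lost its call in 5 of 29 alternatives. Sdhc, which fell in KO, averaged 79.5 ± 10.3 FPKQ in R47H and 76.1 ± 8.60 FPKQ in WT, with an interval of -0.11 to 0.24. Sdha averaged 116 ± 3.73 FPKQ in R47H and 110 ± 3.77 FPKQ in WT, with an interval of 0.01 to 0.16 and an adjusted p of 0.115 by limma.

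In complex III, Uqcr10, a small accessory subunit, rose in R47H by 0.35 ± 0.09 (SE, adjusted p = 0.00631, limma). It averaged 114 ± 17.8 FPKQ in R47H and 88.4 ± 7.99 FPKQ in WT, and the call was lost in 3 of 29 alternatives. In complex IV, Cox6b2, the least abundant tested member, had 1.08, 3.41, 2.11, 1.64 and 1.44 FPKQ in R47H, against 0.669, 0.950 and 2.17 FPKQ as the lowest, median and highest in WT. Its change of 0.46 (adjusted p = 0.0398, limma) was lost in 17 of 28 alternatives, among them without R47H Rep2 (0.177), R47H Rep3 (0.0911) or WT Rep1, Rep3, Rep5, Rep6, Rep7, Rep8 or Rep10 (0.0525 to 0.0656). The main form Cox6b1 averaged 155 ± 29.7 FPKQ in R47H and 117 ± 20.3 FPKQ in WT and was not called (adjusted p = 0.142, limma).

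In complex V, Atp5l (chr9:44912557-44920742), the g subunit of the membrane part of ATP synthase, rose in R47H and the 16 other genes were not called. It had 239, 156, 154, 159 and 109 FPKQ in R47H, against 61.5, 107 and 130 FPKQ as the lowest, median and highest in WT. R47H Rep1 to Rep4 lay above every WT library, and the highest value was in Rep1. The change was 0.63 ± 0.18 (SE, adjusted p = 0.0173, limma), and the call was lost in 4 of 29 alternatives, among them without R47H Rep1 (adjusted p = 0.0679, limma). Pseudogenes of Atp5l that the files list under their own symbols were at most at 0.273 FPKQ in any library. Atp5b averaged 322 ± 22.03 FPKQ in R47H and 332 ± 9.48 FPKQ in WT, and Atp5c1 averaged 170 ± 18.5 FPKQ in R47H and 169 ± 11.6 FPKQ in WT.

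The R47H count fell to 5 higher without R47H Rep2 and likewise without R47H Rep3, and to 4 with sex, read from Xist, as a term in the fit. With libraries rescaled to equal sums, which put the median of all genes in R47H at -0.07, against 0.04 as deposited, 4 members were called higher and 3 lower.

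R47H and KO macrophages differed directly in 16 of 78 members (20.5%), 15 higher and 1 lower in R47H, while 40.7% of all tested genes were called (22.8% higher and 18.0% lower), as were 26.9% of the 591 other short transcripts (135 higher and 24 lower). The median change of the members was 0.17, against 0.03 over all tested genes and 0.16 over the 591 other short transcripts. By complex, 8 of 36 genes of complex I were higher in R47H, 1 of 4 higher and 1 lower in complex II, 2 of 8 higher in complex III, 1 of 13 higher in complex IV and 3 of 17 higher in complex V. Without R47H Rep2 and Rep3 the counts were 3 higher (Atp5l, Ndufb7 and Sdhc) and 4 lower (Cox8a, Uqcrq, Ndufc2 and Sdha). Leaving out R47H Rep2 alone or Rep3 alone gave 9 higher each, and leaving out R47H Rep4 gave 28.

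Atp5l had the largest log2 change between R47H and KO. It had 109 to 239 FPKQ in R47H, against 84.7, 107, 104, 99.9 and 51.8 FPKQ in KO. The groups did not overlap, and the change was 0.86 ± 0.21 (SE, adjusted p = 0.00294, limma). Ndufb7 had 46.8 to 82.5 FPKQ in R47H, against 46.4, 43.6, 36.9, 39.4 and 43.2 FPKQ in KO, again without overlap, for a change of 0.64 ± 0.13 (SE, adjusted p = 8.68e-04, limma). Sdhc had 78.3, 92.4, 86.9, 73.4 and 66.5 FPKQ in R47H, against 50.4 to 62.7 FPKQ in KO, for a change of 0.42 ± 0.10 (SE, adjusted p = 0.00173, limma). These 3 genes kept their calls in all 22 alternatives, and the other 11 called members named here did not.

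Ndufa12, an accessory subunit of complex I, had 52.6, 61.2, 50.6, 46.9 and 45.6 FPKQ in R47H, against 41.7, 37.9, 39.97, 36.5 and 16.7 FPKQ in KO. The groups did not overlap, KO Rep5 was the lowest by far, and the change was 0.62 ± 0.18 (SE, adjusted p = 0.00999, limma). Ndufa2 had 132, 190, 176, 116 and 120 FPKQ in R47H, against 96.1, 118, 98.2, 107 and 70.3 FPKQ in KO, a change of 0.57 ± 0.15 (SE, adjusted p = 0.00486, limma). Only the KO Rep2 value reached into the R47H range. Ndufb8 and Ndufs3 were higher in R47H by 0.48 and 0.39 (adjusted p = 0.0103 and 0.00456, limma). These 4 genes lost their calls in 1 alternative each, the one without R47H Rep2 and Rep3.

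Uqcrc1, which fell in KO, was higher in R47H than in KO by 0.16 (adjusted p = 0.0131, limma), and its groups did not overlap, with 93.4 to 112 FPKQ in R47H and 86.5 to 92.5 FPKQ in KO. The 5 members without overlap between R47H and KO were Atp5l, Ndufa12, Ndufb7, Sdhc and Uqcrc1, while 23.1% of all tested genes had none. Uqcr10, Cox6b2, Atp5g1, Atp5f1 and Ndufa11 were also higher in R47H, by 0.26, 0.53, 0.33, 0.18 and 0.22, and each lost its call in at least 7 alternatives. Without R47H Rep2 or without R47H Rep3 none of these 5 was called (adjusted p = 0.0515 to 0.145, limma), and leaving out KO Rep1, KO Rep2, KO Rep3, KO Rep5 or R47H Rep1 ended 3 or 4 of these calls each. The other 2 members called higher, Ndufa9 and Ndufv2, lie outside the rule for named genes and differed by 0.27 and 0.25. Sdha was the 1 member lower in R47H than in KO, by -0.11 ± 0.04 (SE, adjusted p = 0.0463, limma), a call kept in 12 of 22 alternatives and lost without KO Rep2, Rep3 or Rep4 or R47H Rep1, Rep2, Rep4 or Rep5 (0.0726 to 0.113).

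**Figure D5:**
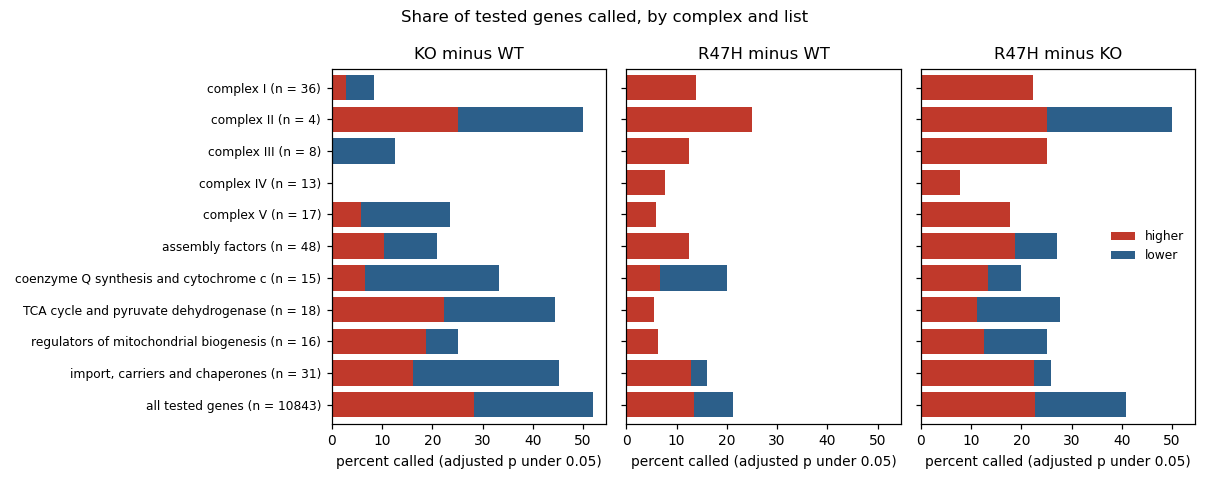
Percent of tested genes called higher or lower (x axis, adjusted p under 0.05, limma) in KO minus WT, R47H minus WT and R47H minus KO, for each complex, for other mitochondrial gene lists and for all tested genes. In KO the share is 0 in complex IV and 50% (2 of 4 genes) in complex II, against 52.0% of all tested genes.

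Other mitochondrial genes, from lists written for this comparison, gave a base for the subunits. Of 48 assembly factors, 5 rose and 5 fell in KO and 6 rose in R47H, with median changes of -0.01 and 0.10. These calls made up 20.8% of the list in KO and 12.5% in R47H, against 52.0% and 21.2% of all tested genes. In KO they included Coa5, an assembly factor of complex IV, higher by 0.39 (adjusted p = 8.0e-07, limma), Sdhaf1, which delivers iron-sulfur clusters to Sdhb, higher by 0.42 (adjusted p = 3.2e-04, limma), and Ndufaf3, an assembly factor of complex I, which fell by 0.42. Of 5 tested subunits and partners whose names the pattern does not match, among them Cyc1 and the inhibitor Atpif1, 0 were called in KO or R47H against WT by limma, and at an unadjusted p under 0.05 Atpif1 was lower in KO (-0.20) and 0 differed in R47H. Cyc1, cytochrome c1 of complex III, averaged 48.7 ± 3.18 FPKQ in KO, 52.1 ± 6.25 FPKQ in R47H and 50.1 ± 2.96 FPKQ in WT.

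Of 18 genes of the TCA cycle and pyruvate dehydrogenase, 4 rose and 4 fell in KO and 1 rose in R47H, with median changes of -0.01 and -0.02. Ogdh, of the oxoglutarate dehydrogenase complex, rose by 0.26 in KO (adjusted p = 9.8e-06, limma), and Idh3a, of NAD-dependent isocitrate dehydrogenase, and Mdh2, the mitochondrial malate dehydrogenase, fell by 0.37 and 0.24. Of 15 genes of coenzyme Q synthesis and cytochrome c, 1 rose and 4 fell in KO, among the lower Coq2 (-0.32) and Cycs, somatic cytochrome c (-0.27), and 1 rose and 2 fell in R47H, and there Pdss1 fell by 0.43. Of 31 genes of import, carriers and chaperones, 5 rose and 9 fell in KO, where Vdac3 fell by 0.31, and 4 rose and 1 fell in R47H. Of 16 regulators of mitochondrial biogenesis, 3 rose and 1 fell in KO, the 1 being Nrf1 (-0.17, adjusted p = 0.0078, limma), and 1 rose in R47H. The shares called in KO were 44.4% for the TCA cycle list, 45.2% for import, 33.3% for coenzyme Q and cytochrome c, 25% for biogenesis and 20.8% for assembly factors, beside 12.8% for the subunits and 52.0% for all tested genes. In R47H the shares were 5.56%, 16.1%, 20%, 6.25% and 12.5% in the same order, beside 11.5% for the subunits and 21.2% for all tested genes. The lists also differed in precision. Their median SE was 0.05, 0.07, 0.08, 0.06 and 0.08 in that order, beside 0.10 for the subunits and 0.07 for all tested genes. The differences between these shares were not tested.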

How the data were processed

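The authors deposited, per library, 1 table of gene symbols with FPKQ, handled here as an FPKM on an unknown common scale. No source used here defines FPKQ, so no count test was run. RSEM and the mouse genome GRCm38 are named in the submitters' processing notes, with no version or settings. RSEM can divide fragments between similar genes. Per the labels' protocols, libraries were strand-specific and read as pairs of 75 bases.

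Analysis used log2(FPKQ + 1), which understates the change of low genes, for the 10843 genes with a 20-library mean at or above 1 FPKQ. Tests used limma 3.58.1 (R 4.3.3) with a trend, 1 model of 3 groups, two-sided, Benjamini-Hochberg adjusted over those genes, and were tried on simulated data. P-values measure the spread between libraries, given in the design text as separate animals. Python 3.11.15 with numpy 2.4.6, scipy 1.17.1, pandas 2.3.3 and matplotlib 3.10.9 did the rest. Lengths and positions came from GENCODE M21. Depth was read from genes with 1 transcript of at least 600 bases, whose low values were whole multiples of 1 fragment in 84.6 to 88.0% of cases per library (tolerance 0.1), or in 33.8 to 45.1% with 200 bases taken off each length.

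The members and gene lists were chosen with earlier results of these data known. Named genes were, per complex and comparison, the 4 largest called rises and falls (for a mutant against WT, with the same sign against each set of 5 WT libraries), the extremes of abundance and adjusted p, the isoform sets, the Sdh genes, and up to 3 each way from other lists. Alternatives covered the WT set, pseudocount, filter, scaling, moderation, groups in the fit, a replicate block and each library left out. Centring by length class, a term for sex and the fit without R47H Rep2 and Rep3 were added after seeing the data.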

Additional observations from a re-analysis of the deposited data

Results flagged for a closer look

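The values of the named members only were scanned, by genotype. In 144 such groups, 11 had 1 library farther from its group than Dixon's 95% limit allows. Chance gives about 1 in 20 for independent groups with some spread, which is a rough guide here. Groups at 0 in every library, such as those of Cox7b2, Cox8b and Cox8c, could not be flagged, and members shifted together within libraries. Of the 11, 4 were low values of KO Rep5. Cox7b was at 47.8 FPKQ there (nearest other KO library 61.2), Ndufa12 at 16.7 (36.5), Ndufa13 at 32.1 (46.7) and Sdhc at 50.4 (59.2). KO Rep5 also had the lowest median of other short transcripts, and what sets these values was not tested. In R47H Rep3, Atp5b was at 360 FPKQ (nearest other R47H library 321) and Sdha at 123 (116), and in R47H Rep1 Uqcrc2 was at 62.6 (55.6). Atp5s was at 4.65 FPKQ in KO Rep3 (2.63). Among WT libraries, Atp5c1 was at 196 FPKQ in WT Rep8 (176), Atp5g2 at 37.1 in WT Rep3 (20.9) and Ndufa5 at 18.8 in WT Rep7 (22.5). Members outside the scan also had distant values, such as Ndufb2 at 8.54 FPKQ in R47H Rep1 (26.9) and Uqcr11 at 44.2 in KO Rep5 (87.0).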

How the results depend on the processing

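For KO against WT the counts of members called (3 higher and 7 lower) became, with WT Rep1 to Rep5 as controls, 1 higher and 4 lower, and then 2 lower against WT Rep6 to Rep10, 4 lower with no filter, 21 lower with equal sums, 12 lower with quantile normalization, 15 lower with 2 groups in the fit and 12 higher and 3 lower with length classes centred. With single libraries left out they were 2 to 4 higher and 2 to 8 lower. Where a KO setting is given with a lower count alone, Sdha, Ndufc2 and Atp5s stayed called higher. For R47H against WT (9 higher and 0 lower by limma) the counts were 3 higher against WT Rep1 to Rep5, 5 against WT Rep6 to Rep10, 5 with no filter, 4 higher and 3 lower with equal sums, 5 higher and 1 lower with quantile normalization, 4 higher with sex as a term, 1 higher and 3 lower without R47H Rep2 and Rep3, and 2 lower with length classes centred. With single libraries left out they were 5 to 13 higher and 0 lower. With length classes centred, Cox6b2 lost its higher call in R47H, and the other named members called higher kept theirs. For R47H against KO (15 higher and 1 lower) they were 9 higher with no filter, 9 higher and 0 lower with 2 groups in the fit, 0 lower with robust moderation, 3 higher and 4 lower without R47H Rep2 and Rep3, and 8 higher and 5 lower with length classes centred. With single libraries left out they were 9 to 28 higher and 0 to 1 lower. Sdha stayed called lower with no filter, and the named members called higher kept their calls with robust moderation. The cause of these moves was not tested. Over all tested genes, equal sums moved the share of calls that were higher to 36.1% in KO, against 54.3% as deposited, and to 20.7% in R47H, against 63.1%. Quantile normalization gave 48.6% in R47H.

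With the replicate number as a block, the counts were 2 higher and 4 lower in KO, 3 higher in R47H, and 17 higher and 0 lower between R47H and KO. Same-numbered libraries correlated at -0.25 to 0.34, and 1, 2 and 1 of 5 numbers correlated best with their own (KO and WT, R47H and WT, R47H and KO), so the numbers were not taken to pair the libraries.

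The members' median changes ran, over the alternatives, from -0.12 to 0.05 in KO, from -0.0053 to 0.17 in R47H and from 0.03 to 0.24 between R47H and KO. The KO median was above 0 without KO Rep5 (0.02) and with length classes centred (0.05), and the R47H median was below 0 without R47H Rep2 and Rep3. Among single members, Atp5b in KO turned to 0.0011 with quantile normalization, and Atp5h in KO was called higher, by 0.10, with length classes centred. Calls of named members held in all alternatives for 2 of 10 in KO, 1 of 8 in R47H and 3 of 14 between R47H and KO. Counting error limits low members such as Cox6b2 and Atp5s most, and the estimate of depth rests on an unknown FPKQ scale.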
